A study of Mus musculus with 8 samples.

Results

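Kupffer cells are the resident macrophages of the liver, and the 10 genes described here are markers of these cells: Clec4f, Vsig4, Timd4, Marco, Cd5l, Adgre1, Csf1r, C1qa, C1qb and C1qc. They were chosen by gene symbol as known markers, and all 10 are among the 25239 genes of the deposited count table. The libraries are RNA-seq of whole liver from adult male mice, 4 per group. Control mice were Zfp36l1 fl/fl, that is, homozygous for loxP-flanked alleles of Zfp36l1, and are tagged as wild type in the labels. Knockout mice were Zfp36l1 fl/fl with the transgene Alb-Cre, so all 8 libraries carry the flanked alleles and only the knockout mice carry the recombinase. The albumin promoter drives Cre in hepatocytes, so Kupffer cells were not the cells targeted for deletion. The labels name no treatment and do not say that each library came from a different mouse, and a p-value below is therefore a statement about variation among the 8 libraries, part of which may be technical.

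Kupffer cells line the liver sinusoids, where they take up microbes, ageing blood cells and cell debris from portal blood. In the steady state they depend on signalling through CSF1R, and their identity is maintained by signals from neighbouring endothelial, stellate and liver parenchymal cells. ZFP36L1, the product of the deleted gene, is an RNA-binding protein that recognises AU-rich stretches of mRNA and speeds the decay of the mRNAs it binds. Whole liver RNA comes mostly from hepatocytes, so macrophage transcripts are a small part of each library. The 10 markers together held 0.0138% to 0.0385% of all counts per library, with 108 to 14452 counts per gene. Levels are given as CPM, that is, a gene's counts relative to the library total after scaling with TMM (trimmed mean of M-values). The lowest member count lies far above the 3 counts taken as the detection floor. In bulk liver, fewer Kupffer cells and less marker RNA per cell cannot be told apart.

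Total counts were 104842873 to 140582588 per library. Zfp36l1 (ENSMUSG00000021127.7) had 263, 237, 324 and 212 CPM in control libraries 1 to 4 and 76.9, 57.9, 67.2 and 58.3 CPM in knockout libraries 1 to 4, so the groups did not overlap. The knockout libraries held 25.1% of the control level (log2 fold change −1.99, SE 0.14, adjusted p = 0.000309 with edgeR's quasi-likelihood test). By an exact two-sided permutation test, p was 0.0286, and no smaller p exists among the 70 ways to divide 8 libraries into these groups. Alb, the albumin gene of hepatocytes, had 57566 ± 3580 CPM in controls and 71672 ± 4025 CPM in knockouts (SD, n = 4 per group).

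None of the 10 Kupffer cell markers differed between knockout and control livers beyond the spread between libraries. At adjusted p under 0.05 (edgeR's quasi-likelihood test, Benjamini-Hochberg adjustment over all 14861 genes tested) 0 of 10 members passed, beside 801 of all tested genes, or 5.39%. At an unadjusted p under 0.05 the count was also 0 of 10, against 21.5% of all tested genes. DESeq2 and limma-voom likewise called 0 of 10. The groups did not overlap for 0 of 10 members, against 15.1% of all tested genes. Log2 fold changes of knockout over control ran from 0.10 for Timd4 to 0.25 for Adgre1, all above 0, with a median of 0.22 beside −0.01 for all tested genes. Adjusted p-values ran from 0.613 for Adgre1 to 0.876 for Cd5l. That common sign depended on single libraries: without knockout library 4 the median was −0.07 and 1 of 10 members was above 0, and without control library 2 the number above 0 was 7 of 10.

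What separated the libraries was a shared swing of all the markers, which was widest within the knockout group. The members' mean log2 CPM, each gene centred on its own mean, was 0.13, −0.36, −0.02 and 0.10 in control libraries 1 to 4. In knockout libraries 1 to 4 it was 0.44, −0.64, −0.42 and 0.77. On this mean, the libraries numbered 1 and 4 lay above those numbered 2 and 3 in both groups, and number 2 was lowest. Gene by gene the controls did not always keep this order. Adgre1 was highest of the controls in library 3. Csf1r was higher in control library 3 than in 1, and Clec4f and Timd4 were slightly higher in 3 than in 4. Knockout library 4 was the highest of the 8 libraries for 10 of 10 members and knockout library 1 the second highest for 10 of 10. Knockout library 2 was the lowest for 9 of 10, and knockout library 3 was the lowest for Marco. Control library 2 was the second lowest of the 8 for 7 of 10. For all 10 members the knockout range enclosed the whole control range.

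**Figure D1:**
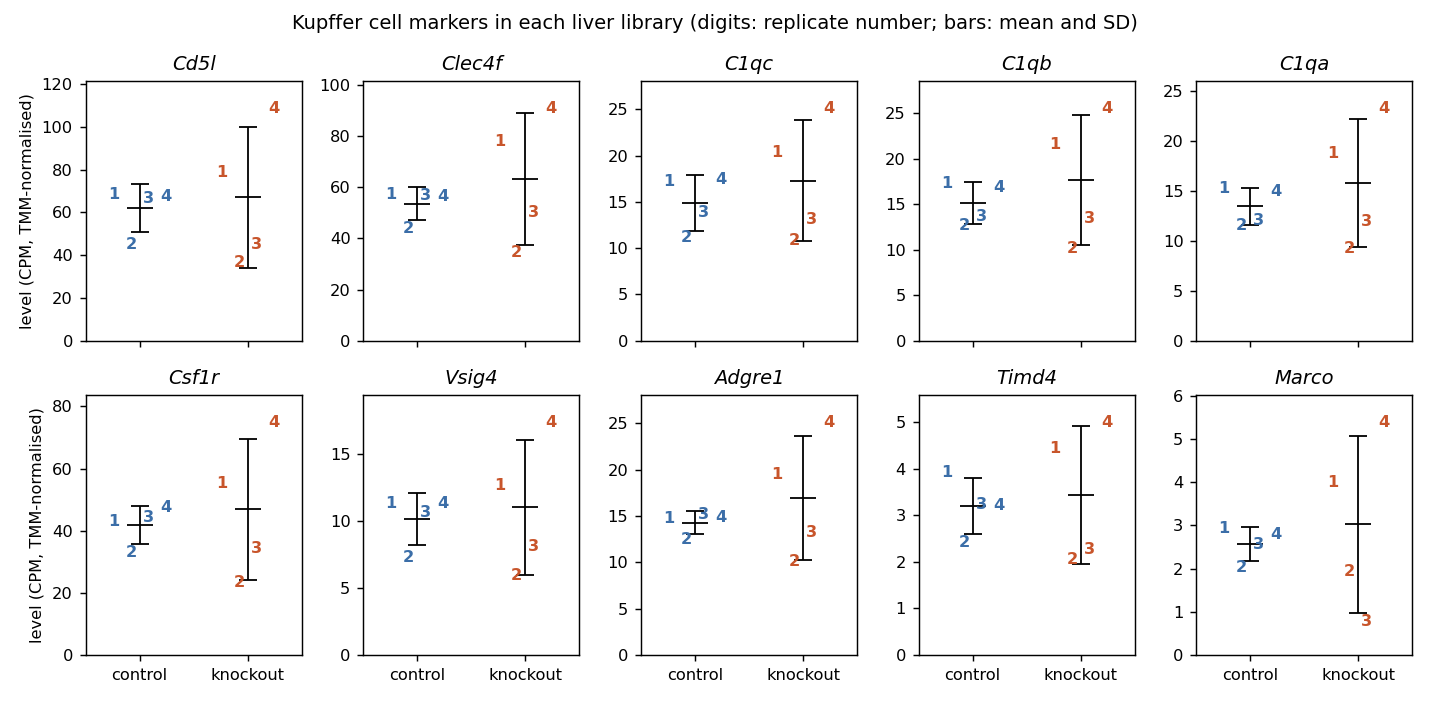
Level of each Kupffer cell marker in CPM (TMM-normalised, linear axis from 0) in the control (blue) and knockout (orange) libraries. Each digit is the replicate number of 1 library, and bars give the mean and SD of 4 libraries. In every panel knockout libraries 1 and 4 sit above all controls, and knockout library 2 sits below all controls.

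Clec4f, Timd4, Vsig4, Cd5l and Marco were read first. Clec4f encodes a C-type lectin that in the mouse is largely restricted to Kupffer cells (ENSMUSG00000014542.3, chromosome 6, 83644542 to 83656187, minus strand, mm10). It had 57.2, 43.9, 56.7 and 56.4 CPM in control libraries 1 to 4 and 77.9, 34.3, 49.9 and 90.6 CPM in knockout libraries 1 to 4. The controls other than library 2 lay within 1 CPM of each other, while the knockout libraries spread 2.64-fold from lowest to highest. The group means were 53.6 ± 6.44 and 63.2 ± 25.6 CPM (SD, n = 4 per group), with a log2 fold change of 0.24 (SE 0.28, adjusted p = 0.662 with edgeR).

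Timd4 encodes TIM-4, a phosphatidylserine receptor for dying cells that marks long-lived resident Kupffer cells (chromosome 11, 46810800 to 46844332). Its control levels were 3.92, 2.43, 3.24 and 3.22 CPM, and its knockout levels were 4.45, 2.06, 2.27 and 4.99 CPM. Knockout libraries 2 and 3 were thus below all controls and libraries 1 and 4 above them, with means of 3.20 ± 0.613 and 3.44 ± 1.49 CPM. On the log2 scale the difference was 0.10 with an SE of 0.30 (edgeR, adjusted p = 0.870).

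Vsig4 encodes the complement receptor of the immunoglobulin family, which captures C3-coated particles from blood (chromosome X, 96247203 to 96293438). It had 11.3, 7.29, 10.6 and 11.3 CPM in the controls and 12.7, 5.91, 8.11 and 17.3 CPM in the knockouts. Knockout libraries 1 and 4 were again the highest and knockout library 2 the lowest. The fitted log2 difference was 0.12, less than its SE of 0.31 (edgeR, adjusted p = 0.859).

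Cd5l encodes AIM, a scavenger-receptor protein secreted by macrophages (chromosome 3, 87357881 to 87371073). Control levels were 68.2, 45.2, 66.7 and 67.5 CPM and knockout levels were 36.4 CPM in library 2, 44.8 in library 3, 78.6 in library 1 and 108 in library 4. The mean was 61.9 ± 11.2 CPM in controls and 67.0 ± 33.0 CPM in knockouts. The fitted log2 difference of 0.12 was smaller than its SE, 0.34 (edgeR, adjusted p = 0.876).

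Marco, a scavenger receptor that binds bacteria and particles (chromosome 1, 120474538 to 120505024), was the member that left the common pattern. Its control levels were 2.93, 2.03, 2.56 and 2.78 CPM, and the knockout libraries had 4.00, 1.94, 0.781 and 5.37 CPM. The value in knockout library 3 rests on 108 counts and was 3.95-fold below the mean of the other 7 libraries. Knockout libraries 1 and 4 were above all controls, as for the other markers. The fold change had the widest error of the members (log2 0.23, SE 0.49, adjusted p = 0.826 with edgeR), and without knockout library 3 it was 0.55 (adjusted p = 0.391).

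Adgre1 and Csf1r mark macrophages of many tissues. Adgre1 encodes F4/80, the common surface marker of mouse macrophages (chromosome 17, 57358691 to 57483527). It had 14.7, 12.5, 15.1 and 14.8 CPM in the controls, with a coefficient of variation of 8.49%, and 19.5, 10.03, 13.2 and 25.0 CPM in the knockouts, with one of 39.4%. The controls were thus close together and enclosed by the knockout values (log2 fold change 0.25, SE 0.25, adjusted p = 0.613 with edgeR).

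Csf1r encodes the receptor on which Kupffer cells depend, which binds CSF1 and IL-34. Its levels were 42.8, 33.1, 44.1 and 47.4 CPM in controls and 55.3, 23.4, 34.3 and 74.7 CPM in knockouts, a 3.20-fold spread in the latter against 1.43-fold in the former. The difference was 0.16 on the log2 scale with an SE of 0.33 (edgeR, adjusted p = 0.817). The gene overlaps Hmgxb3 and Mir6983 of the same table in the annotation, and how reads from shared stretches were counted is not known. Its ligand genes, Csf1 and Il34, did not pass the test. Csf1 had 11.2 ± 2.83 and 15.0 ± 4.24 CPM (log2 fold change 0.42, adjusted p = 0.363). Il34 had 1.17 ± 0.142 and 1.49 ± 0.105 CPM (0.36, adjusted p = 0.220), and its groups did not overlap.

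The last 3 members encode the chains of C1q, the recognition molecule of the classical complement pathway, which in liver is made mainly by macrophages. The genes lie side by side on the minus strand of chromosome 4, in the order C1qb, C1qc and C1qa, within 18675 bases (136880129 to 136898803, mm10). C1qa had 15.2, 11.6, 12.1 and 14.9 CPM in controls and 18.7, 9.22, 12.0 and 23.2 CPM in knockouts. C1qb had 17.2, 12.6, 13.6 and 16.8 CPM in controls and 21.6, 10.1, 13.4 and 25.5 CPM in knockouts. C1qc had 17.2, 11.1, 13.9 and 17.4 CPM in controls and 20.3, 10.8, 13.1 and 25.0 CPM in knockouts. Control libraries 2 and 3 were the lower controls for all 3 chains, and knockout libraries 1 and 4 were the highest of all. Log2 fold changes were 0.23, 0.23 and 0.22, with adjusted p from 0.662 to 0.687 (edgeR).

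The 3 chains assemble in equal numbers in the protein, and their transcripts were close to equal per length of gene. As shares of the summed CPM per kilobase of the 3 genes, C1qa made up 30.3% to 32.7%, C1qb 32.9% to 35.0% and C1qc 32.2% to 36.6% over the 8 libraries. The mean shares in controls and knockouts were 31.0 ± 1.15% and 31.0 ± 0.385% for C1qa (SD, n = 4 per group). The level of each chain, in contrast, differed at least 2.32-fold between the lowest and the highest knockout library.

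Promoter sequences are given for 3 members because C1qb and C1qc are neighbours whose transcripts moved in step, and because Vsig4 has the most matches to the motif searched. The sequences are from RefSeq (GRCm38.p6), run 5′ to 3′ on the gene's strand from 250 bases before to 50 bases after the annotated start, and capitals mark each match to GAGGAA on either strand. This is a purine-rich core bound by PU.1, the macrophage transcription factor encoded by Spi1. C1qb is at chr4:136886151-136886450 (minus strand), C1qc at chr4:136892865-136893164 (minus strand) and Vsig4 at chrX:96293389-96293688 (minus strand).
C1qb: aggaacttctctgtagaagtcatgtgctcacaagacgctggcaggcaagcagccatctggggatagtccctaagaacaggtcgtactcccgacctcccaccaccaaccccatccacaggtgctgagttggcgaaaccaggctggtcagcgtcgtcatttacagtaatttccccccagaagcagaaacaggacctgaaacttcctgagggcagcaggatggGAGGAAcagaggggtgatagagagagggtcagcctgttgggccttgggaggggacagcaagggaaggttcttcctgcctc
C1qc: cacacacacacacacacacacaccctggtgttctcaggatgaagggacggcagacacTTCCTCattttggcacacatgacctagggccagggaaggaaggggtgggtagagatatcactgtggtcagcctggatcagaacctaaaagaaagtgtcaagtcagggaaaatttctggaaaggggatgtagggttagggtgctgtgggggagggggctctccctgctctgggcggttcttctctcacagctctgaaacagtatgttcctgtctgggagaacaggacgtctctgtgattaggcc
Vsig4: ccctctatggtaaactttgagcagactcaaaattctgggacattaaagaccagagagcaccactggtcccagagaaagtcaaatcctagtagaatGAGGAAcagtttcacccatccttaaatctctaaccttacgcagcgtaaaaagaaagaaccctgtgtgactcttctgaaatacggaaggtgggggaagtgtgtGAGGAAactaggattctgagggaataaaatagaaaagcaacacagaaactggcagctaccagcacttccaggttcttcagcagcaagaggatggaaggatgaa

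Of the 7 members with a promoter entry in that table, 5 hold the motif on either strand (Vsig4 with 2 matches, Marco, Cd5l, C1qb and C1qc with 1 each), and Clec4f and Timd4 hold none. Over all 32851 promoters of the same length, 28.3% hold it. A match is a description of these letters and not a binding site. Spi1 itself had 2.13 ± 0.631 and 2.77 ± 1.13 CPM (log2 fold change 0.38, adjusted p = 0.534 with edgeR).

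The motif of the deleted protein was looked for in the 3′ untranslated regions of the markers. UAUUUAU, the core AU-rich element bound by the ZFP36 family, occurs in 0 of the 10 members' longest annotated 3′ untranslated regions (GENCODE M21, GRCm38). It occurs in 29.6% of the 13716 tested genes with such a region. The members' regions are short, with a median of 463 bases against 1328 bases for the tested genes, and the shares were not matched on length.

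Per length of gene, control levels spanned a wide range among the markers. In CPM per kilobase, Cd5l was highest (30.4 ± 5.48), followed by Clec4f (22.3 ± 2.68), C1qc (14.1 ± 2.85), C1qb (13.7 ± 2.09), C1qa (12.4 ± 1.74) and Csf1r (10.8 ± 1.59). Vsig4 (7.06 ± 1.34), Adgre1 (4.401 ± 0.374), Timd4 (1.47 ± 0.282) and Marco (1.34 ± 0.204) followed. Control ranges overlapped between Cd5l and Clec4f, among the 3 C1q genes, between C1qa and Csf1r, and between Timd4 and Marco, so those neighbours are not ordered beyond their spread. The other neighbours in this order had control ranges that did not overlap.

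**Figure D2:**
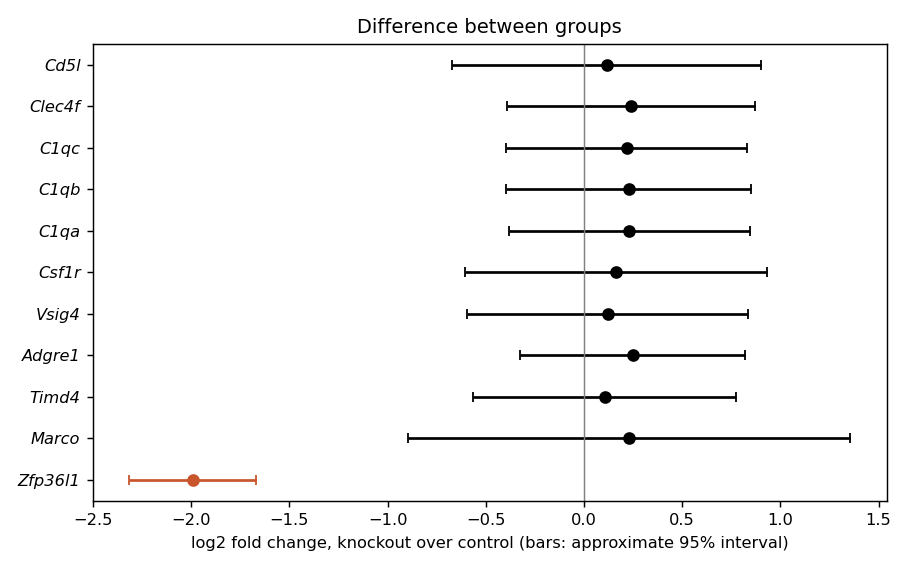
Log2 fold change of knockout over control for each marker, with Zfp36l1 for comparison. Points are edgeR estimates and bars approximate 95% intervals. All 10 marker intervals include 0, from −0.89 to 1.36 for Marco, and that of Zfp36l1 runs from −2.32 to −1.67.

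The approximate 95% interval of the fold was 0.798 to 1.77 for Adgre1, 0.761 to 1.83 for Clec4f and 0.676 to 1.71 for Timd4. For Csf1r it was 0.657 to 1.91 and for Cd5l 0.627 to 1.87. Marco had the widest one, 0.538 to 2.56. Each interval holds both lower and higher levels in the knockout, and equal levels in the 2 groups were not shown.

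Library numbers 1 to 4 occur in both groups. In the pair of libraries numbered 1, 10 of 10 members were higher in the knockout, by 0.16 to 0.45 on the log2 scale. In pair 4, 10 of 10 were higher again, by 0.53 to 0.95. In pair 2, 10 of 10 were lower, with differences of −0.50 to −0.04, and in pair 3 10 of 10 were lower, with −1.69 to −0.01. Over all tested genes the share that was higher in the knockout was 47.1% to 50.6% in each pair. The 10 markers thus all had the same sign within each pair, with medians of −0.31 in pair 2 and −0.28 in pair 3. Some of the differences were close to 0, as for C1qa (−0.014) and C1qb (−0.020) in pair 3 and C1qc (−0.045) in pair 2. The labels do not say that same-numbered libraries belong together.

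**Figure D3:**
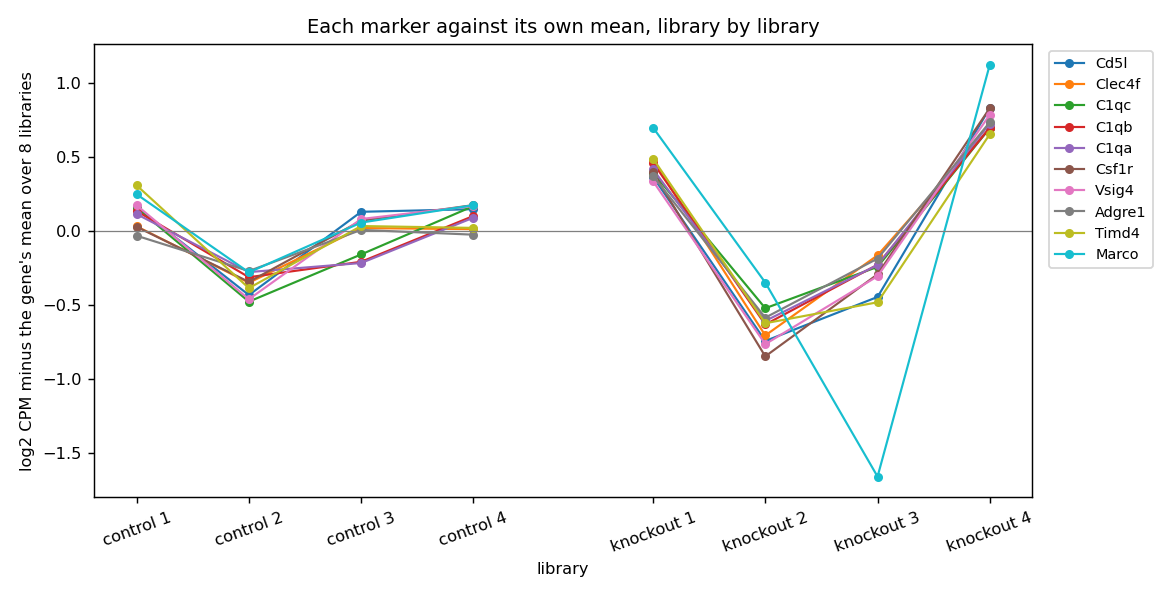
Log2 CPM of each marker minus its own mean over the 8 libraries. Lines join the values of 1 gene within a group and imply no order of the libraries. Knockout library 4 is the highest for every gene, control library 2 is the lowest control for every gene, and Marco in knockout library 3 is the lowest point of the plot.

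The SD of the CPM values was larger in the knockout group for 10 of 10 members, by at least 2.19-fold. On the log2 scale the ratio of the knockout SD to the control SD ran from 1.83 to 5.31 with a median of 2.86, and over all tested genes the median ratio was 0.824. Of all tested genes, 39.1% had the larger SD in the knockout group. Because the members moved together, these are not 10 separate observations, and no test of the spread was made.

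Between the members, Pearson's r of log2 CPM over the 8 libraries had a median of 0.95 over 45 gene pairs, and 0.96 after the group means were subtracted. These values describe 8 libraries that the genes share, with no test. The closest pair was C1qa and C1qb (r = 0.998), and Vsig4 with Cd5l and Clec4f with Adgre1 had r = 0.99. The 36 pairs without Marco had r of at least 0.92, while Marco had 0.68 to 0.84 with the other members.

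Outside the marker set, the 5 tested genes whose log2 CPM followed the markers' mean most closely were Adgre4 (r = 0.99), Itgal (0.99), Fyb (0.99), Folr2 (0.98) and Pou2f2 (0.98). All are known from leukocytes. Adgre4 encodes a relative of F4/80, Itgal the integrin chain of LFA-1, Fyb an adaptor of immune cells, Folr2 a folate receptor of resident macrophages, and Pou2f2 a lymphoid and myeloid transcription factor. Adgre4 had 5.38, 3.71, 4.59 and 5.14 CPM in controls and 6.41, 2.97, 3.83 and 8.10 CPM in knockouts, with the same libraries high and low as the markers. Over the 14851 other tested genes the median r was −0.05, and 1.06% had r over 0.9.

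Setting each marker against Adgre1 in the same library removes whatever the marker shares with Adgre1, so a smaller spread follows from their correlation. What is left shows where members part. The difference of log2 CPM between Clec4f and Adgre1 was 1.90 ± 0.0621 in controls and 1.89 ± 0.0954 in knockouts (SD, n = 4 per group), with a range of 0.23 over the 8 libraries. The range of Clec4f alone was 1.40 on the same scale. Timd4 kept 0.63 of 1.27 and Marco 1.84 of 2.76, while the other members kept 0.37 to 0.46. For C1qa, C1qb and C1qc the knockout mean minus the control mean on this scale was −0.015, −0.018 and −0.0044, less than their SD.

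Relative to Adgre1, Vsig4 was −0.51 ± 0.184 in controls and −0.66 ± 0.0996 in knockouts, and Timd4 was −2.17 ± 0.190 and −2.32 ± 0.168. Cd5l was 2.10 ± 0.165 and 1.94 ± 0.158, and Csf1r was 1.54 ± 0.112 and 1.42 ± 0.157. These differences between groups, from −0.16 for Cd5l to −0.12 for Csf1r, were each smaller than the larger SD of the groups compared, and the groups overlapped. By library number, Csf1r relative to Adgre1 was lower in the knockout in 4 of 4 pairs, with differences of −0.036, −0.19, −0.17 and −0.10, and no other member had 1 sign in all pairs. No test of these paired differences was made. With Csf1r as the reference gene they were −0.017 for Vsig4, −0.024 for Timd4 and −0.039 for Cd5l.

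Marco relative to Adgre1 was −2.61 to −2.32 in the controls and −2.36 to −2.22 in knockout libraries 1, 2 and 4. In knockout library 3 it was −4.05, which is 3.16-fold below the mean of the other 7 libraries after the level of Adgre1 is taken into account. The range over the 8 libraries was 1.84 for Marco. The next widest was 0.63 for Timd4, whose lowest value, −2.53, was also in knockout library 3.

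**Figure D4:**
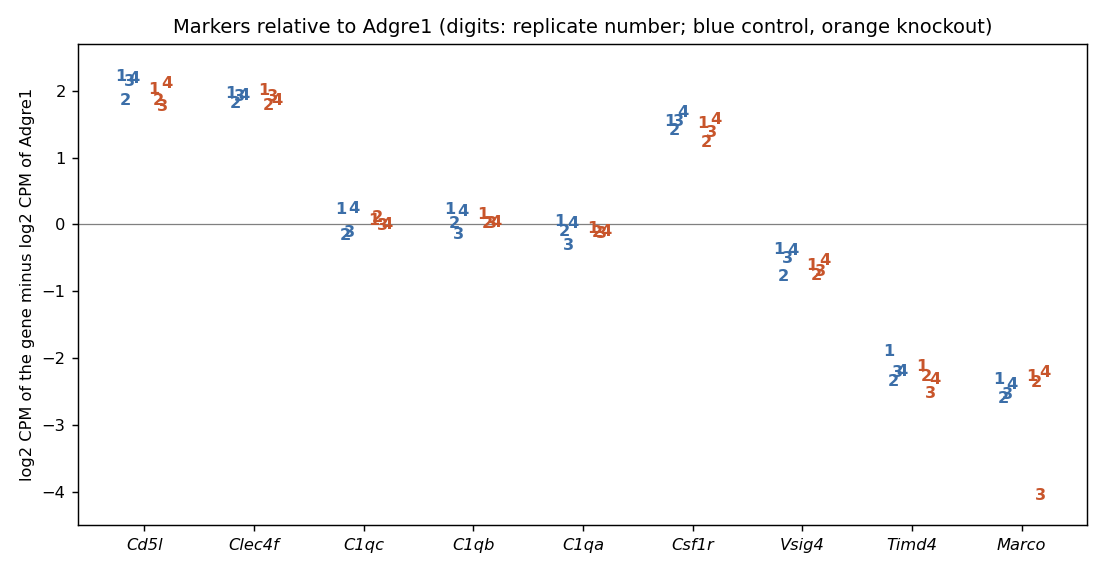
Log2 CPM of each marker minus log2 CPM of Adgre1 in the same library, with replicate numbers as symbols (blue control, orange knockout). The 2 groups overlap for every gene, and Marco in knockout library 3, at −4.05, lies apart from the other 7 libraries.

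Lists of other macrophage genes were read from the same test, in which 3.51% of all tested genes were higher and 1.88% lower. The alternative fits called other shares of all genes, against which their counts below are to be read. DESeq2 called 6.97% higher and 4.97% lower (of 14557 genes with an adjusted p), limma-voom 3.34% and 1.67%, and the fit with replicate number as a block 4.39% and 2.52%. Scaling by total counts turned the balance of directions, with 2.64% higher and 9.0% lower. Of 14 other Kupffer cell genes, 1 rose and 0 fell, and the median log2 fold change was 0.11 (with the block on replicate number, 1 higher and 1 lower). The gene that rose was Vcam1, an adhesion molecule also made by endothelium, with 6.83 ± 0.695 CPM in controls and 10.9 ± 2.66 CPM in knockouts. Its log2 fold change was 0.67, with an SE of 0.16 and an edgeR adjusted p of 0.0433. Its call was lost in each of the 8 fits that left out 1 library, with adjusted p-values of 0.0536 to 0.126, while the log2 fold change stayed between 0.50 and 0.77. Upper quartile scaling (adjusted p = 0.0505) and limma-voom (0.0622) did not call it, and DESeq2 (0.00228) and the block (0.0244) did. Folr2 had 4.82 ± 0.806 and 5.20 ± 2.32 CPM (edgeR adjusted p = 0.863). Cd163, the receptor for haemoglobin bound to haptoglobin, had 9.03 ± 2.27 and 9.23 ± 4.51 CPM (edgeR adjusted p = 0.966). Both had the larger SD in the knockout group. In the same list Slc40a1 (146 ± 59.8 and 148 ± 11.7 CPM), C6 (317 ± 114 and 221 ± 77.7 CPM), Id3 and Nr1h3 had the larger SD in controls. Over the 14 genes r with the markers ran from −0.25 to 0.98, and 5 had r over 0.9.

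Of 18 general macrophage and myeloid genes, 0 rose and 0 fell with edgeR, DESeq2 or limma-voom, and 0 had an unadjusted p under 0.05. Their median log2 fold change was 0.29, and 13 of the 18 had r over 0.9 with the markers. Ptprc, the pan-leukocyte gene for CD45, had 7.40 ± 0.733 and 9.84 ± 4.10 CPM (log2 fold change 0.41, adjusted p = 0.414). Lyz2, the lysozyme gene of myeloid cells, had 24.7 ± 3.73 and 33.1 ± 14.4 CPM (0.42, adjusted p = 0.456), and Cd68, a lysosomal marker of macrophages, had 3.61 ± 0.575 and 4.11 ± 1.05 CPM (0.19, adjusted p = 0.620). Cyba, which encodes a subunit of the phagocyte oxidase, had 2.11 ± 0.276 and 2.76 ± 0.959 CPM (adjusted p = 0.387).

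Of 15 genes for growth factors and niche signals of macrophages, 0 rose and 0 fell (edgeR, with 3 at an unadjusted p under 0.05), with a median r with the markers of 0.09. With the block 1 was higher, and with DESeq2 1 was lower. Dll1, a Notch ligand gene, had 5.47 ± 1.08 and 3.70 ± 0.227 CPM without overlap (−0.56, adjusted p = 0.0546). Tgfbr2, a receptor chain for TGF-β, had 44.0 ± 11.04 and 59.2 ± 6.19 CPM (adjusted p = 0.164).

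Of 14 macrophage transcription factors, 0 passed with edgeR, DESeq2 or limma-voom, and 2 had an unadjusted p under 0.05. Among them Irf8 had r = 0.98 with the markers, while Nr1h3, the LXRα gene that hepatocytes also express, had 97.1 ± 8.21 and 105 ± 7.62 CPM and r = −0.25. Spic, a factor of iron-recycling macrophages, had 0.573 ± 0.124 and 0.879 ± 0.426 CPM (adjusted p = 0.349). Id3, a factor tied to Kupffer cell identity, had 27.5 ± 8.19 and 19.5 ± 3.31 CPM (adjusted p = 0.205).

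The classical complement list holds the proteases that act with C1q, which are made largely by hepatocytes. Of its 14 genes 0 passed with edgeR, 5 had an unadjusted p under 0.05, and the median log2 difference was −0.09. With the block 1 was higher and 1 lower, with DESeq2 2 were higher and 2 lower, and under scaling by total counts 3 were lower. C1ra had 244 ± 13.4 and 191 ± 30.1 CPM (−0.35, SE 0.11, adjusted p = 0.0958), and C1s1 had 622 ± 19.1 and 517 ± 45.1 CPM (−0.26, SE 0.078, adjusted p = 0.0836). Both proteases had groups that did not overlap, with all 4 knockout libraries below all controls, whereas the C1q chains were high in 2 knockout libraries. C5ar1, the C5a receptor gene of myeloid cells, had 0.434 ± 0.124 and 0.862 ± 0.244 CPM (0.99, adjusted p = 0.0866).

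Of 15 genes for clearance of dying cells and scavenger receptors, 1 rose and 1 fell. Gas6, a ligand that bridges dying cells to the receptor MERTK, rose, with 44.1 ± 7.73 CPM in controls and 65.5 ± 6.21 CPM in knockouts (edgeR log2 fold change 0.57, SE 0.12, adjusted p = 0.0314). Scarb1, the HDL receptor gene, fell, with 198 ± 5.96 CPM in controls and 140 ± 17.96 CPM in knockouts (edgeR log2 fold change −0.50, SE 0.092, adjusted p = 0.0178). The call was lost in 6 of the 8 fits without 1 library for Gas6 (adjusted p up to 0.0888) and in 4 for Scarb1 (up to 0.0611).

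Markers of other cell types varied between the libraries as well. Of 16 monocyte and recruited macrophage markers, 2 rose and 0 fell, and the median log2 fold change was 0.77. Their summed level was 27.4 to 34.5 CPM in controls and 44.3 to 61.4 CPM in knockouts, without overlap. Without Cd9 the sums were 8.0 to 15.7 CPM in controls and 12.2 to 28.8 CPM in knockouts, which overlapped. Cd9, a tetraspanin gene that many cell types express, made up most of that sum and rose, with 19.9 ± 1.33 CPM in controls and 33.4 ± 4.22 CPM in knockouts (edgeR log2 fold change 0.75, SE 0.097, adjusted p = 0.00518). Mmp12, a macrophage elastase gene, rose as well, with 0.138 ± 0.0875 CPM in controls and 0.667 ± 0.245 CPM in knockouts (edgeR log2 fold change 2.28, SE 0.50, adjusted p = 0.0307). With replicate number blocked its adjusted p was 0.0565. Neither followed the Kupffer cell markers over the libraries (r = −0.11 and 0.0058). Ccr2, the chemokine receptor gene of monocytes, had 1.43 ± 0.764 and 2.17 ± 1.41 CPM (adjusted p = 0.567), Ly6c2 had 0.299 ± 0.266 and 0.647 ± 0.606 CPM (adjusted p = 0.508), and Trem2 had 0.266 ± 0.171 and 0.404 ± 0.178 CPM (adjusted p = 0.485). Without single libraries the call of Mmp12 was lost in 5 of 8 fits (adjusted p up to 0.0786). Its level in control library 2 was 0.0316 CPM, near the floor of 3 counts, which is 0.0237 CPM in that library. A stricter count filter, 1 CPM or more in at least 4 libraries, left this gene out.

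Neutrophil markers were high in some of the libraries in which the Kupffer cell markers were high. The summed level of the 7 tested genes of 10 was 3.04 to 64.0 CPM in controls and 2.40 to 79.3 CPM in knockouts, and the median r of these genes with the markers was 0.89. Of the 10 genes 0 were at 0 in all libraries, though Ly6g, a defining marker, had 0 counts in control libraries 1 to 3 and knockout library 3, and 48 counts in knockout library 1. S100a8, a granulocyte gene, had 0.766, 0.111, 0.0859 and 1.49 CPM in control libraries 1 to 4 and 15.5, 0.0174, 0.0579 and 6.16 CPM in knockout libraries 1 to 4. In both groups it was higher in the libraries numbered 1 and 4 than in those numbered 2 and 3. Its log2 fold change did not pass the test (3.16, SE 1.78, adjusted p = 0.356). Lcn2, which injured hepatocytes also make, gave 54.5 CPM of the sum in control library 4 and 47.8 CPM in knockout library 4. The part of these cells in the swing of the Kupffer cell markers was not tested.

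The summed general macrophage list was also highest in knockout libraries 4 and 1, with 263, 173, 170 and 262 CPM in control libraries 1 to 4 and 266, 173, 190 and 402 CPM in knockout libraries 1 to 4. The summed Kupffer cell markers were 251, 182, 239 and 253 CPM in controls and 313, 144, 192 and 400 CPM in knockouts. Sinusoidal endothelial markers (12 genes, 301 to 420 CPM in controls and 297 to 427 CPM in knockouts) were lowest in knockout library 2 as well but high in control library 3. Of these 0 passed with edgeR (1 at an unadjusted p under 0.05, and 1 higher with DESeq2, with limma-voom and with the block). Stab2, a scavenger receptor of that endothelium, had 52.1 ± 8.38 and 52.6 ± 8.96 CPM. Hepatocyte markers (11 tested of 12) summed to 84263 to 92127 CPM in controls and 99926 to 109510 CPM in knockouts, without overlap. Alb alone made up most of that sum, and without it the sums were 29514 to 32062 CPM in controls and 31275 to 33565 CPM in knockouts, which overlapped. The members went both ways, with 5 above and 6 below 0 and a median log2 fold change of −0.054. With edgeR 0 passed (4 at an unadjusted p under 0.05, 4 higher with DESeq2 and 1 higher with the block). Their part in the marker levels was not tested.

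**Figure D5:**
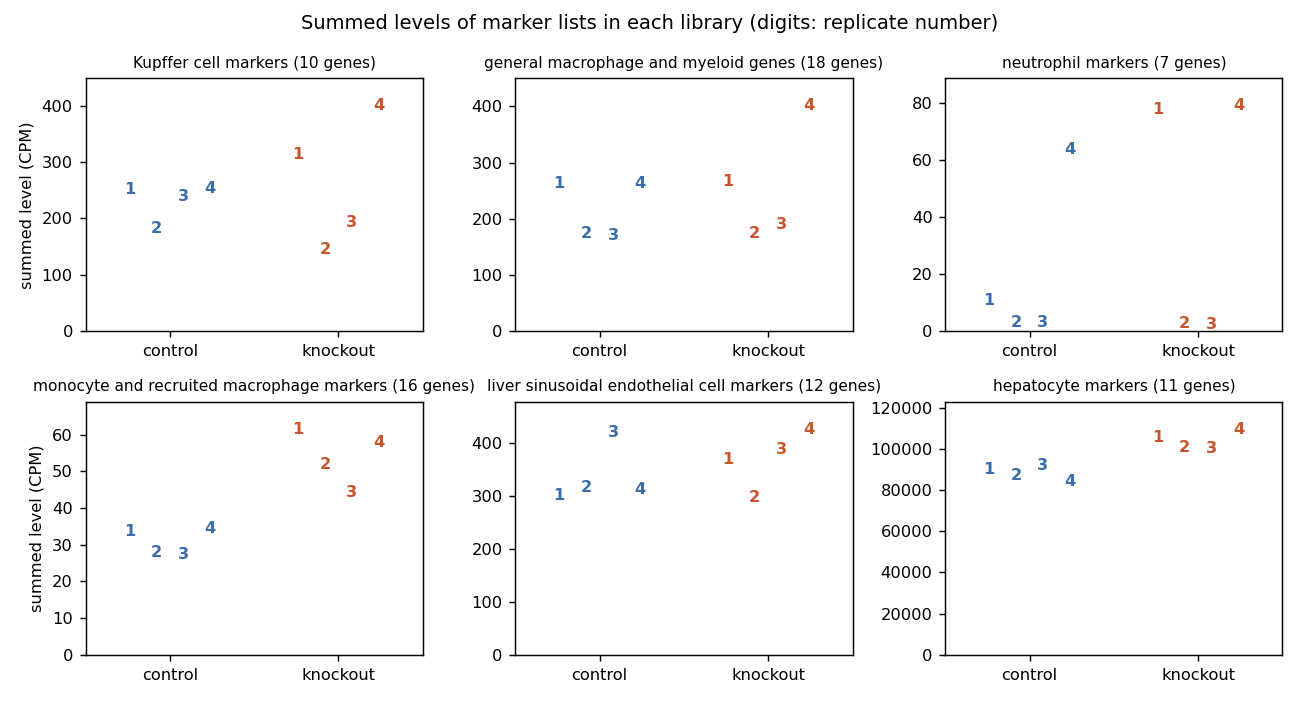
Summed CPM of 6 marker lists in each library (linear axes from 0), with replicate numbers as symbols. Kupffer cell, general myeloid and neutrophil sums are high in knockout libraries 1 and 4 and low in 2 and 3, while the hepatocyte and recruited macrophage sums do not overlap between the groups, a separation that is lost when Alb or Cd9, respectively, is left out.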

How the data were processed

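RNA-seq counts of 8 mouse liver libraries were used, 4 per group, grouped by the sample titles. The authors deposited raw counts per gene symbol with a gene length in bases, and columns were matched by the library names in the labels. Per the submitters' processing notes the build was mm10. The aligner, counter, annotation and strand setting were not given in the sources used here. Of low counts (1 to 20), 67.4% to 70.8% were even, against 48.4% to 50.7% of counts of 1000 or more, so halved counts were an alternative. Libraries of a group differed beyond sampling noise (chi-square per gene 69.5 or more).

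The members and gene lists were chosen with earlier results of these data known. Named are the 10 members, Zfp36l1, a fixed set of regulators and cell markers, from 15 further lists the genes that passed or had the lowest adjusted p (not all are described), and the 5 genes most correlated with the markers.

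Genes were filtered with filterByExpr (14861 kept), scaled with TMM and tested with edgeR 4.0.16 (glmQLFit with robust estimation, glmQLFTest, Benjamini-Hochberg, threshold 0.05) in R 4.3.3. Standard errors are the absolute log2 fold change over the square root of F, and 95% intervals use the moderated degrees of freedom. Both are approximate. Log2 CPM used a prior count of 2. A floor of 3 counts is 0.0215 to 0.0277 CPM and covers counting error only. Alternatives used DESeq2 1.42.0 and limma 3.58.1. The fit was tested on simulated data.

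Same-numbered libraries of the 2 groups correlated at 0.17, 0.39, 0.31 and 0.40 in their deviations from group means, so the number was fitted as a block in an alternative. The labels name no shared litter, batch or day, and the pairing comes from the data.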

Additional observations from a re-analysis of the deposited data

Results flagged for a closer look

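In 40 groups of 4 libraries (each member's CPM and its log2 level relative to Adgre1, and Zfp36l1), 5 had a library far from the other three by Dixon's ratio, the gap to the nearest library over the group's range. Chance flags about 1 in 20 groups, and the members are not independent. In control library 2, Clec4f (43.9 CPM against 56.4 to 57.2, ratio 0.943), Cd5l (45.2 against 66.7 to 68.2, ratio 0.934) and Adgre1 (12.5 against 14.7 to 15.1, ratio 0.846) were low. In knockout library 3, Marco relative to Adgre1 was −4.05 against −2.36 to −2.22 (ratio 0.921). In knockout library 1, C1qb relative to Adgre1 was 0.15 against 0.015 to 0.024 (ratio 0.933).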

How the results depend on the processing

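In all 20 other settings 0 of 10 markers passed, with adjusted p-values of 0.251 to 1.00, and at an unadjusted p under 0.05 the count was 0 except 1 without knockout library 2. The direction of the markers was not stable. Marco was −0.098 with limma-voom and −0.042 with the replicate block. With quality weights Vsig4 was −0.019, Timd4 −0.057, Marco −0.38 and Cd5l −0.060, and under total counts Timd4 was −0.011. Total counts moved the median of all genes to −0.12 and that of the members to 0.11. Chosen after seeing the data, the fit without knockout libraries 2 and 4 gave Marco −0.11 and Cd5l −0.0045, and the block without pairs 2 and 4 gave Vsig4 −0.11, Timd4 −0.16, Marco −0.58 and Cd5l −0.18. Leaving out 1 library gave ranges of −0.18 to 0.33 for Vsig4, −0.13 to 0.29 for Timd4, −0.20 to 0.55 for Marco, −0.22 to 0.32 for Cd5l, −0.0019 to 0.43 for Adgre1, −0.15 to 0.39 for Csf1r, −0.013 to 0.42 for C1qa, −0.00081 to 0.42 for C1qb and −0.014 to 0.39 for C1qc, each lowest without knockout library 4. Clec4f stayed above 0 (0.014 to 0.44). Among other named genes, which were not called in any of these settings, total counts gave Cd163 −0.081, Folr2 −0.0034 and Stab2 −0.10. Cd163 was −0.060 with limma-voom, −0.062 with the block and −0.091 without knockout libraries 2 and 4, where Stab2 was −0.012. Folr2 was −0.046 with quality weights. The block without pairs 2 and 4 gave Cd163 −0.11, Folr2 −0.0041 and Stab2 −0.13. Without 1 library the ranges were −0.33 to 0.26 for Cd163, −0.14 to 0.30 for Folr2 and −0.097 to 0.14 for Stab2. The number of all genes called was 801, and 1028 with the replicate block, which changed no call of a marker. It was 1730 under total counts, 1738 with DESeq2, 1450 with quality weights, 195 without knockout libraries 2 and 4, 438 with the block without pairs 2 and 4, and 211 to 967 without 1 library. The cause was not tested. Zfp36l1 was called in every setting (−2.11 to −1.85). At 108 or more counts per marker, the spread between libraries and not counting depth limits these comparisons.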

Other observations

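Other immune and liver cell lists followed the Kupffer cell markers to different degrees over the 8 libraries. T and NK cell genes (11 tested of 12) had a median r of 0.71 with the markers' mean, and 0 rose and 0 fell with edgeR (0 at an unadjusted p under 0.05, and 1 lower with the replicate block). Their summed level was 7.60, 3.37, 4.10 and 7.25 CPM in control libraries 1 to 4. In knockout libraries 1 to 4 it was 5.39, 2.46, 2.77 and 6.41 CPM. The sum was again higher in the libraries numbered 1 and 4, and lower in the knockout in 4 of 4 same-numbered pairs. Cd4 was its largest part in every library, with 3.96, 1.91, 1.73 and 5.29 CPM in controls. In knockouts Cd4 had 2.40, 0.925, 1.17 and 3.36 CPM, so it showed both patterns by itself. Il2rb, the next largest, was higher in knockout library 4 (1.31 CPM) than in control library 4 (0.903 CPM). Log2 fold changes of the list went both ways, with 5 genes above and 6 below 0. B cell genes (7 tested of 8) had a median r of 0.42, hepatic stellate cell genes −0.05 and dendritic cell genes 0.30. Of 10 dendritic cell genes 1 rose, Bst2, an interferon-induced gene, with 74.9 ± 10.5 CPM in controls and 107 ± 10.9 CPM in knockouts (edgeR log2 fold change 0.52, adjusted p = 0.0304). That call was lost in 5 of 8 fits without 1 library, with adjusted p up to 0.0831.

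Cholangiocyte genes (7 tested of 8) ran against the markers, with a median r of −0.56. Of these 1 fell, Sox9, the transcription factor of bile duct cells, with 11.7 ± 1.68 CPM in controls and 5.17 ± 1.98 CPM in knockouts (edgeR log2 fold change −1.18, adjusted p = 0.0242), and with r = 0.11. Its call was lost in 5 of 8 fits without 1 library, with adjusted p up to 0.0745. Over the whole list the log2 fold changes went both ways, with 3 genes (Krt19, Krt7 and Cftr) above 0 and 4 below, so the fall of Sox9 was not shared by the list. These correlations describe 8 libraries and were not tested.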
